A study of Mus musculus with 6 samples.

Results

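Messenger RNA of 10 genes for chromatin-silencing enzymes was followed in cultured embryonic heart muscle cells after knockdown of the DNA methyltransferase DNMT1. The genes were taken from a list of symbols matched to Ensembl identifiers. This rule uses no measured value, but the list was chosen with earlier results of these data known. All 10 genes were found among the 43629 genes counted. They were Ezh1, Ezh2, Eed, Suz12 and Jarid2 of Polycomb repressive complex PRC2, the class I histone deacetylase genes Hdac1 and Hdac2, and the class IIa histone deacetylase genes Hdac4, Hdac5 and Hdac9. Ventricles of CD-1 mouse embryos were pooled by litter at embryonic day 13.5, and the non-attaching cells, mostly cardiomyocytes, were cultured. These received 12 nM of a siRNA pool against DNMT1, here called DNMT1 siRNA, or 12 nM of a control siRNA, called negative siRNA. After 72 h cells carrying the surface protein VCAM1 were sorted on magnetic columns, and polyadenylated RNA was sequenced in 3 libraries per treatment. All libraries came from wild-type CD-1 cells that were transfected and sorted in the same way. The sources do not say whether the 3 libraries of a treatment came from separate litters, so p-values measure the spread between these libraries.

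PRC2 places methyl groups on lysine residues of histone H3 at H3K27, a mark of silenced developmental genes. EZH1 or EZH2 is its catalytic subunit, EED and SUZ12 hold the enzyme core together, and JARID2 helps to bring the complex to chromatin. Histone deacetylases remove acetyl groups from histone tails. HDAC1 and HDAC2 are nuclear and work within repressor complexes, whereas HDAC4, HDAC5 and HDAC9 shuttle between nucleus and cytoplasm and hold back MEF2 transcription factors in heart muscle. DNMT1 copies DNA methylation to the new strand after replication, and both PRC2 and histone deacetylases are known partners of DNA methyltransferases in gene silencing.

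The libraries held 27852412 to 35896018 reads on genes with negative siRNA and 13739561 to 16186310 with DNMT1 siRNA. Dnmt1 had 3446.5, 2759.5 and 2878.0 normalized counts (reads scaled to a common library size) with negative siRNA and 772.4, 785.7 and 665.6 with DNMT1 siRNA, which was 24.5% of the negative siRNA mean. A treatment tag of the DNMT1 siRNA libraries names DNMT3a instead of DNMT1, and the titles were followed. Dnmt3a was 0.24 ± 0.08 higher on the log2 scale (SE; edgeR quasi-likelihood test, Benjamini-Hochberg adjusted p = 0.0919). One control library, negative siRNA 2, stood apart on the second principal component of expression (-37.1, against 18.4 or more for the other negative siRNA libraries). Reads in no annotated exon made up 17.0 ± 1.64% of the reads given to a gene or to no exon in the controls and 31.2 ± 4.55% after knockdown (SD over 3 libraries; exact two-sided permutation p = 0.1, the smallest that 3 against 3 allows). Of 10 cardiomyocyte markers, 8 were higher with DNMT1 siRNA past an adjusted p of 0.05, and their summed level was 41842 to 54086 normalized counts in negative siRNA libraries and 93117 to 112721 in DNMT1 siRNA libraries. Of 9 fibroblast and mesenchyme markers, 3 were lower (summed 788611 to 1213967 against 600125 to 640098). Of 7 endothelial markers 3 were higher and 1 lower (1601 to 2209 against 4265 to 4507). None of 5 epicardial markers, 2 of 6 smooth muscle markers (both lower) and 1 of 6 macrophage markers (lower) passed the same test, and no marker on these lists was at 0 in every library. The part of depth, of the reads outside exons and of other cell types in the values of the 10 genes was not tested.

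DNMT1 acts on CpG dinucleotides, so the promoters are shown first by their CpG content. RefSeq (GRCm38.p6) gave 11 promoters of 300 bases, 250 before and 50 after the transcription start, for 9 of the 10 genes, and Hdac1 was not matched. Of these, 9 lay above the median of 7 CpG over 32851 mouse promoters, from 17 in Eed to 41 in Suz12, a number that 3.46% of all promoters reached. Both Hdac9 promoters lay below it, with 0 and 3 CpG. Hdac2 is shown as the gene called below by its adjusted p, Suz12 as the promoter with the most CpG and Hdac9 as that with none. Each is given by the 250 bases before the start on the gene's own strand, 5′ to 3′, with every CpG in capitals.
Hdac2 (chr10:36974294-36974543, plus strand): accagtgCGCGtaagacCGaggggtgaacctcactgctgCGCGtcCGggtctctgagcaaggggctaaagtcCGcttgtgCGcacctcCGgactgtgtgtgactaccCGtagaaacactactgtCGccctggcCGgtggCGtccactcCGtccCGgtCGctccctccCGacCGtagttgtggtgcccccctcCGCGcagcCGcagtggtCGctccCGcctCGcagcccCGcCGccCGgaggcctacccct
Suz12 (chr11:79992856-79993105, plus strand): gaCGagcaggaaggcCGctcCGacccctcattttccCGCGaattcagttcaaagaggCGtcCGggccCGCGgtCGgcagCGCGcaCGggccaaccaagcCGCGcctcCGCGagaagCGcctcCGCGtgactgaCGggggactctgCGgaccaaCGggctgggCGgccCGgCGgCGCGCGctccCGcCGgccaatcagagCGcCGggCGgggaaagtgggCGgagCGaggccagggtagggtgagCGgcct
Hdac9 (chr12:34917096-34917345, minus strand): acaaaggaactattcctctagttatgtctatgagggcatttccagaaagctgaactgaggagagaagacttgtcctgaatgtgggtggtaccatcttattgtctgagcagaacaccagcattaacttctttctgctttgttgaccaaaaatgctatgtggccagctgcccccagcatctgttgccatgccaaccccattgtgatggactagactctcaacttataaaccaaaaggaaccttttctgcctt
These windows hold 27, 37 and 0 CpG. E2F factors drive cell cycle genes, and an E2F motif (TTTCCCGC, TTTGGCGC, TTTCGCGC or TTTGCCGC on either strand) occurred in the promoters of Ezh2, as TTTGGCGC, and Suz12, as TTTCCCGC, and in 2.26% of all promoters. The palindromic MEF2 motif occurred in the Hdac5 promoter alone among the 11, and in 0.557% of all promoters. A match is a description of these letters and does not show binding, and DNA methylation of these promoters was not analysed here.

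Of the 10 genes, Hdac2 alone was called at the gene level, and only by the adjusted p. All 10 passed the filter on low counts, and none passed both limits used for a call, an adjusted p below 0.05 and a fold change above 1.5, which 6.49% of the 15470 genes tested did. By the adjusted p alone 1 of 10 was called, with 12.5% of all genes called, and 1 of 10 had an unadjusted p below 0.05 by edgeR, with 29.2% of all genes. The log2 fold changes ran from -0.45 for Hdac9 to 0.19 for Hdac1, 6 being negative and 4 positive. Their median was -0.13, beside -0.0049 over all genes tested. For 9 of the 10 the 95% interval of the log2 fold change lay wholly inside the fold limit (-0.58 to 0.58), and Hdac9 was the exception. The libraries of the 2 treatments did not overlap for 3 genes, as for 36.0% of all genes. In 8 of 10 the SD of the log2 level between libraries was smaller with DNMT1 siRNA, which held for 71.8% of all genes.

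**Figure D1:**
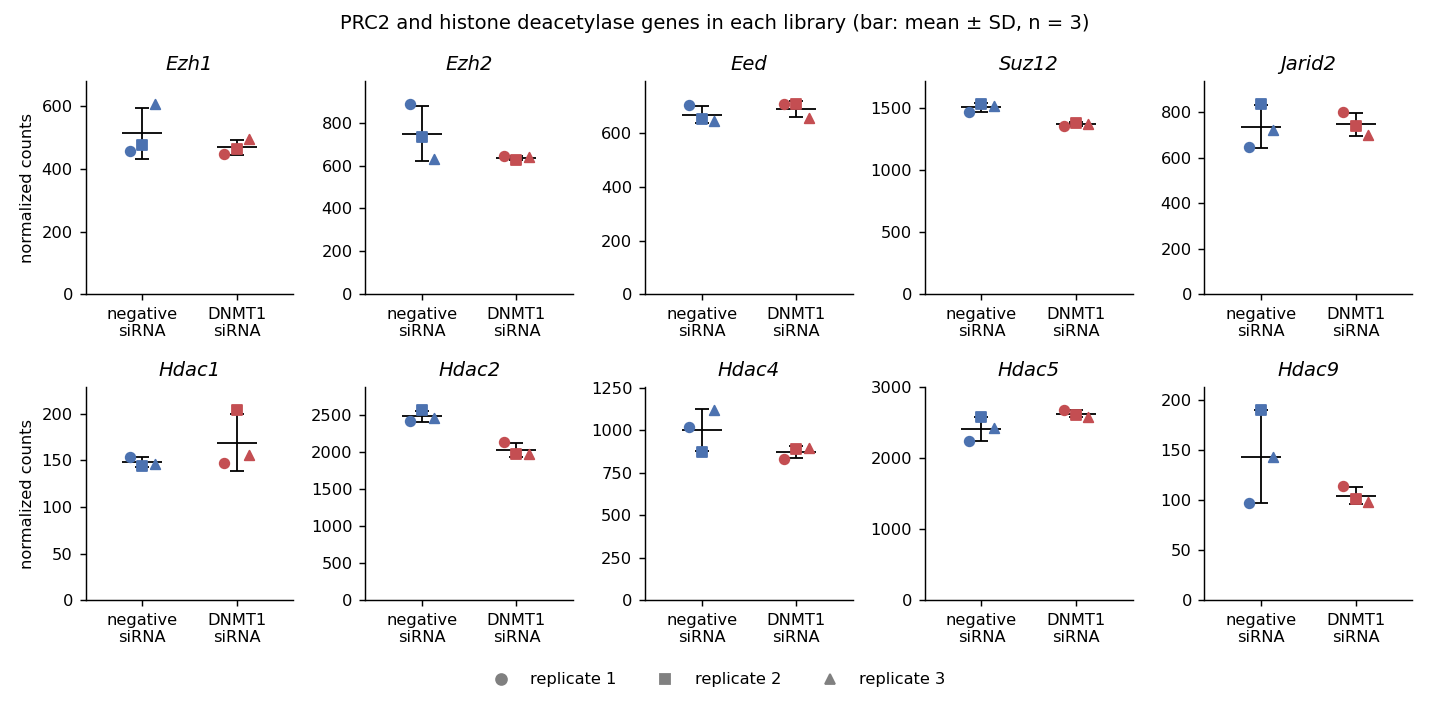
Normalized counts of the 10 genes (y axis of each panel, from 0) in 3 negative siRNA libraries (blue) and 3 DNMT1 siRNA libraries (red). The marker shape gives the replicate number, and black bars give mean ± SD. The Hdac2 and Suz12 points with DNMT1 siRNA all lie below those with negative siRNA, the Hdac5 points all lie above, and the other 7 genes overlap.

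**Figure D2:**
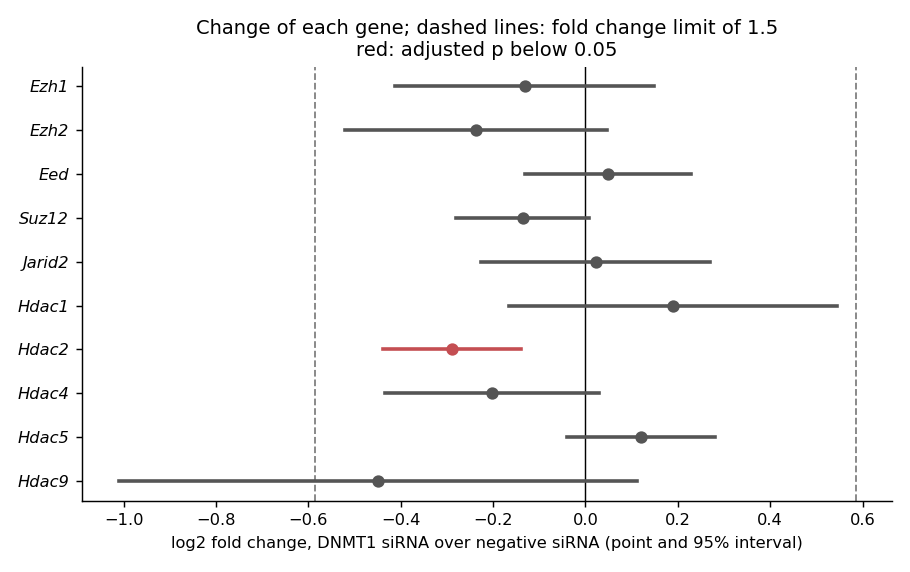
Log2 fold change of each gene, DNMT1 siRNA over negative siRNA (x axis; point and 95% interval), with dashed lines at the fold limit of 1.5 and an adjusted p below 0.05 in red. Hdac2 is the one red gene at -0.29, and the Hdac9 interval is the widest, from -1.01 to 0.11.

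Within PRC2, neither catalytic subunit passed the test. Ezh2 (chr6:47530139-47595341, minus strand), the methyltransferase that prevails in dividing cells, had 887.6, 732.1 and 628.3 normalized counts with negative siRNA and 645.0, 625.3 and 639.5 with DNMT1 siRNA. The DNMT1 siRNA libraries lay close together, with a coefficient of variation of 1.59%, at the lower end of negative siRNA libraries that varied by 17.4%. The log2 fold change was -0.24 ± 0.12 (SE, 95% interval -0.52 to 0.05; edgeR quasi-likelihood test, Benjamini-Hochberg adjusted p = 0.246). It was -0.10 without negative siRNA 1 and -0.35 without negative siRNA 3 (edgeR adjusted p = 0.523 and 0.0671). Ezh1 (chr11:101191115-101226463, minus strand), its paralog of resting and differentiated cells, had 458.1, 477.0 and 608.1 against 447.9, 465.0 and 495.6. Negative siRNA 3 was the highest Ezh1 library and, for Ezh2, the lowest of the controls. The Ezh1 log2 fold change was -0.13 (95% interval -0.41 to 0.15, edgeR adjusted p = 0.516), and 0.0058 without negative siRNA 3. The balance of these paralogs within a library does not depend on scaling, and the reads on Ezh2 per read on Ezh1 were 1.94, 1.53 and 1.03 with negative siRNA and 1.44, 1.34 and 1.29 with DNMT1 siRNA. All DNMT1 siRNA ratios fell within the range of the controls. The mean log2 ratio differed by -0.10 (exact two-sided permutation p = 0.7).

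Of the core scaffold, Suz12 (chr11:79993106-80034123, plus strand), which keeps EZH2 stable, had 1468.2, 1533.8 and 1516.4 normalized counts with negative siRNA and 1354.3, 1381.8 and 1375.4 with DNMT1 siRNA. Every DNMT1 siRNA library was below every control, a pattern seen in 17.7% of all genes tested. The mean with DNMT1 siRNA was 91.0% of the control, a log2 fold change of -0.14 ± 0.06 (SE, 95% interval -0.28 to 0.01; edgeR adjusted p = 0.193). Eed (chr7:89954654-89980983, minus strand), the subunit that reads methylated H3K27, had 706.1, 654.9 and 646.2 against 709.4, 709.9 and 657.5. These values overlapped, and the 95% interval of the log2 fold change ran from -0.13 to 0.23 around 0.05 (edgeR adjusted p = 0.717). Jarid2 (chr13:44729474-44921643, plus strand), a recruiting subunit whose loss disturbs heart development in mice, had 647.7, 836.9 and 723.2 against 799.2, 740.5 and 700.0. The DNMT1 siRNA libraries all fell within the range of the controls, with a log2 fold change of 0.02 (95% interval -0.23 to 0.27; edgeR adjusted p = 0.913). This sign turned with the processing, to -0.02 when libraries were scaled by total count only.

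Hdac2 (chr10:36974544-37001889, plus strand) encodes a class I deacetylase that acts in the SIN3, NuRD and CoREST repressor complexes and has known roles in cardiac growth. It had 2426.4, 2574.1 and 2466.6 normalized counts with negative siRNA and 2146.8, 1982.4 and 1982.2 with DNMT1 siRNA. All 3 DNMT1 siRNA libraries lay below all 3 controls, and the gap between the groups was wider than the range within either group. The mean fell by 18.2%, from 2489 to 2037, beside coefficients of variation of 3.07% in the controls and 4.66% after knockdown (n = 3 each). The log2 fold change was -0.29 ± 0.07 (SE, 95% interval -0.44 to -0.14; edgeR quasi-likelihood test, Benjamini-Hochberg adjusted p = 0.0279). In bulk RNA a lower level per cell and fewer of the cells that express a gene cannot be told apart. The call was lost when any 1 DNMT1 siRNA library was left out (adjusted p 0.0630 without replicate 1, 0.143 without replicate 2 and 0.119 without replicate 3), while the log2 fold change stayed between -0.35 and -0.27 in those fits. No read-length window of its annotated transcripts was shared with another gene. Likeness to Hdac2 was read from log2 CPM, counts relative to library sizes adjusted by the TMM method. The 3 genes that followed Hdac2 most closely over the 6 libraries were Pnpla8, Gm7389 and Gm6136 (Pearson r = 0.996, 0.995 and 0.994). With 6 libraries in 2 groups such values are common, and 811 of 12737 genes had r above 0.9.

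Hdac1 (chr4:129516104-129542713, minus strand), the close paralog of Hdac2, had 154.1, 144.1 and 146.2 normalized counts with negative siRNA and 147.5, 204.1 and 155.4 with DNMT1 siRNA. One library, DNMT1 siRNA 2, was above the other 5, and the groups overlapped. The log2 fold change was 0.19 ± 0.15 (SE, 95% interval -0.16 to 0.54; edgeR adjusted p = 0.457), and without DNMT1 siRNA 2 it was 0.03. Counts of Hdac1 are uncertain because the processed pseudogene Gm10093 (chr17:78491582-78493025, plus strand) carries a near copy of its coding sequence, and HTSeq set aside reads that mapped to more than one place. Of the 75-base windows in the coding part of transcript Hdac1-201, 73.3% occur in Gm10093 exactly and 94.0% with at most 2 mismatches, while 0% of its non-coding windows do. A stretch at the start of the coding sequence, transcript bases 85 to 159, shows the identity, and the stretch at bases 352 to 426 shows a window that differs by 1 base, given in capitals (GENCODE M21 transcripts, GRCm38).
Hdac1, bases 85 to 159: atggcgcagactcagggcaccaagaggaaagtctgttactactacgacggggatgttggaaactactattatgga
Gm10093, bases 1 to 75: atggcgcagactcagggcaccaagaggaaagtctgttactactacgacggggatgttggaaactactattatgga
Hdac1, bases 352 to 426: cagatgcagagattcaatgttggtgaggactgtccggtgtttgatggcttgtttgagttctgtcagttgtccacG
Gm10093, bases 268 to 342: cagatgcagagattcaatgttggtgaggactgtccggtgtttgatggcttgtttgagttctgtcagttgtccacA
Gm10093 was looked at after its values were seen. It was given 630.8, 613.5 and 608.1 normalized counts with negative siRNA and 709.4, 609.3 and 657.5 with DNMT1 siRNA, so that it was given more reads than Hdac1 in every library. Counted as 1 gene, Hdac1 and Gm10093 had 765.6 ± 16.8 against 827.7 ± 25.3 (SD over 3 libraries), with 0.11 as the log2 fold change (95% interval -0.05 to 0.27; edgeR adjusted p = 0.324). The reads on Hdac2 per read on Hdac1 were 15.7, 17.9 and 16.9 with negative siRNA and 14.6, 9.71 and 12.8 with DNMT1 siRNA. The DNMT1 siRNA ratios all lay below those of the controls, by 0.47 on the mean log2 scale (-0.47, exact two-sided permutation p = 0.1, the smallest possible), and they carry the same uncertainty in Hdac1. The difference was -0.30 without DNMT1 siRNA 2 and -0.59 without DNMT1 siRNA 1.

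Class IIa deacetylases bind MEF2 factors and leave the nucleus when kinases phosphorylate them. Hdac5 (chr11:102194432-102230166, minus strand) had the highest level of them per length of exon, with 2246.7, 2576.8 and 2426.2 normalized counts with negative siRNA and 2681.9, 2609.2 and 2589.0 with DNMT1 siRNA. Every DNMT1 siRNA library was above every control, as for 18.3% of all genes tested, but the lowest of them exceeded the highest control by little. The log2 fold change was 0.12 ± 0.07 (SE, 95% interval -0.04 to 0.28; edgeR adjusted p = 0.296). Hdac4 (chr1:91928779-92195699, minus strand) had 1020.0, 870.7 and 1120.6 against 831.4, 890.6 and 894.6. These overlapped through negative siRNA 2 alone, which lay below 2 of the DNMT1 siRNA libraries. The log2 fold change was -0.20 (95% interval -0.43 to 0.03; edgeR adjusted p = 0.227), and the gene was called in 1 of 14 alternative fits. That was the fit without negative siRNA 2 (-0.30, edgeR adjusted p = 0.0306), while without negative siRNA 3 it was -0.12 (edgeR adjusted p = 0.437). Of the Hdac4 exon bases, 22.4% overlap Gm26720 on the opposite strand, and Gm26720 was at 0 in all 6 libraries. The library kit does not mark strand, so reads of such a pair cannot be told apart, and the counter's rule for overlaps is not given in the sources used here. HTSeq did set aside 1283015 to 1628830 reads per library as ambiguous between genes. How many of these lay on Hdac4 was not tested.

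Hdac9 (chr12:34047580-34917095, minus strand), a class IIa deacetylase known to hold back cardiac hypertrophy, had the lowest level of the set per length of exon. It had 96.9, 189.6 and 142.3 normalized counts with negative siRNA and 114.0, 100.6 and 98.1 with DNMT1 siRNA. The controls spread with a coefficient of variation of 32.4%, against 8.19% with DNMT1 siRNA, and their lowest library lay below every DNMT1 siRNA library. The log2 fold change was -0.45 ± 0.24 (SE, 95% interval -1.01 to 0.11; edgeR adjusted p = 0.265). It was -0.67 and past both limits without negative siRNA 1 (adjusted p = 0.0483), and -0.19 without negative siRNA 2.

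**Figure D3:**
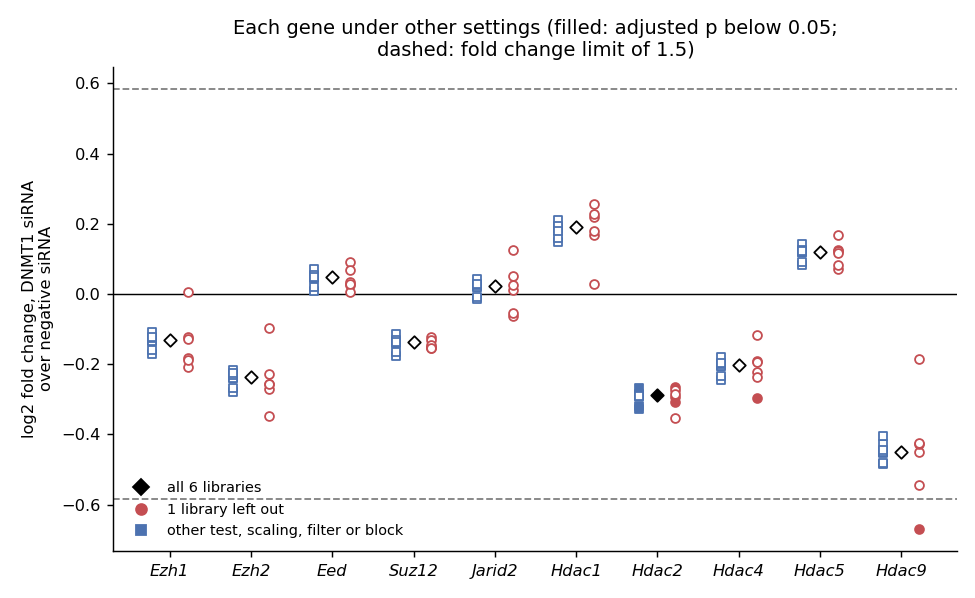
Log2 fold change of each gene (y axis) with all 6 libraries (black diamond), with 1 library left out (red circles) and under another test, scaling, filter or replicate block (blue squares). Filled symbols have an adjusted p below 0.05 and dashed lines mark the fold limit of 1.5. Hdac2 keeps to -0.35 to -0.26, whereas Hdac9 runs from -0.67 to -0.19 as single control libraries are left out.

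Levels can be set side by side between genes only per length of exon. CPM was taken here as counts relative to library sizes adjusted by the TMM method. In CPM per kilobase of exons, the negative siRNA means were 25.6 for Hdac2, 14.03 for Suz12, 12.7 for Hdac5, 8.05 for Eed and 5.17 for Ezh2. They were 3.49 for Jarid2, 3.18 for Ezh1, 2.92 for Hdac4, 1.98 for Hdac1 and 0.449 for Hdac9. Neighbours in this order were separate in all 3 control libraries except Jarid2 and Ezh1, and Ezh1 and Hdac4, whose values overlapped. With DNMT1 siRNA Hdac5 (13.8) stood before Suz12 (12.8), and the rest kept their order. The order rests on the exon lengths of every annotated transcript. With the transcripts of the GENCODE basic set alone Hdac5 (19.8) stood before Suz12 (15.9), Hdac4 (5.71) before Jarid2 (5.50), and Ezh2 came to 12.3. Hdac1 carries the uncertainty from Gm10093 described above. Hdac4 carries that from Gm26720, because its level divides by all exon bases, including the 22.4% that overlap that gene.

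**Figure D4:**
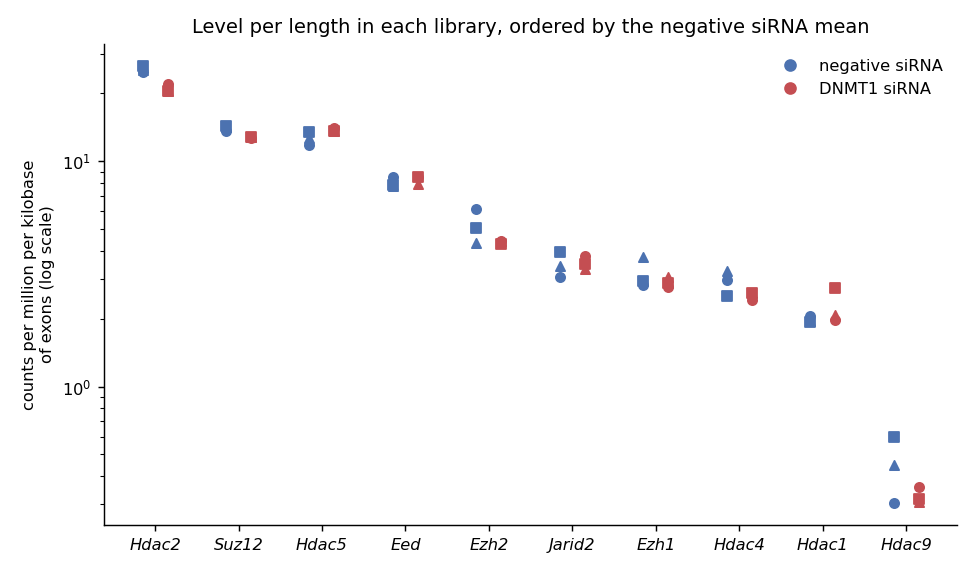
CPM per kilobase of exons (y axis, log scale) of the 10 genes in negative siRNA and DNMT1 siRNA libraries, 1 point per library with the replicate number given by its shape, ordered by the negative siRNA mean. Hdac2 is highest at 25.6 and Hdac9 lowest at 0.449 in the negative siRNA mean, and Hdac5 stands above Suz12 with DNMT1 siRNA only.

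The partners and opponents of these enzymes were read from 10 lists with 138 genes, of which 111 passed the filter. By the adjusted p, 10 were higher with DNMT1 siRNA and 4 were lower, beside 6.81% and 5.65% of all genes tested, and 97 did not pass. With any 1 DNMT1 siRNA library left out, 1 list gene was higher and 1 lower. Past both limits were 4 higher genes and 1 lower, beside 4.26% and 2.23% of all genes. Genes of these lists named here that did not pass both limits were picked out after their values were seen.

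Of the other 7 PRC2 subunits, 1 was lower and none higher, and the list median was -0.08. Rbbp7, a histone-binding protein shared by PRC2 and the SIN3 and NuRD deacetylase complexes, fell from 3173.4, 3118.7 and 2793.2 to 2455.3, 2409.5 and 2440.2 normalized counts (log2 fold change -0.31 ± 0.07, SE, edgeR adjusted p = 0.0246). All its DNMT1 siRNA libraries were below the controls. Its partner Rbbp4 had a log2 fold change of -0.20 (edgeR adjusted p = 0.111), and Phf19, which guides PRC2 to chromatin, one of 0.44 (0.0969). The demethylase genes Kdm6a and Kdm6b, which remove H3K27 methylation, did not pass, with log2 fold changes of -0.08 and -0.04. Of 20 PRC1 subunits, whose complex binds or works beside the PRC2 mark, 2 were higher and none lower by the adjusted p. These were Pcgf5 (0.49 on the log2 scale), the ring-finger partner of a variant PRC1, and Phc3 (0.33), a polyhomeotic subunit of canonical PRC1. The median of the PRC1 list was nonetheless -0.11. Ring1, Rnf2, Phc1 and Yaf2 had log2 fold changes of -0.34, -0.26, -0.28 and -0.29. For each, every DNMT1 siRNA library was below every control, a pattern seen in 17.7% of all genes tested, but none passed (edgeR adjusted p = 0.0974, 0.0612, 0.0694 and 0.0587). Phc2 and Kdm2b also lay below every control, at -0.19 and -0.18, and did not pass (edgeR adjusted p = 0.121 and 0.172).

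Among the deacetylases outside the set, none of the 6 other zinc-dependent enzymes passed, with log2 fold changes from -0.11 for Hdac3 to 0.15 for Hdac8, and none of the 7 sirtuins did, from -0.31 for Sirt6 to 0.34 for Sirt4. Of 23 subunits of deacetylase complexes, 4 were higher and 2 lower, and the list median was -0.09. Sap18, a subunit of the SIN3 complex, rose from 413.7, 286.8 and 381.8 to 583.3, 543.7 and 652.6 normalized counts (log2 fold change 0.72 ± 0.14, SE, edgeR adjusted p = 0.0184), although 13.0% of its 75-base windows are shared with another gene. Tbl1x, a subunit of the NCoR and SMRT complexes that hold HDAC3, fell from 6441.8, 6846.0 and 6686.8 to 4323.2, 3964.7 and 4070.7 (-0.69 ± 0.07; edgeR adjusted p = 0.0011). Its paralog Tbl1xr1 rose by 0.32 on the same scale. In the CoREST complex, which holds HDAC1 and HDAC2, the scaffold genes Rcor1 and Rcor3 rose by 0.40 and 0.37, while the demethylase gene Kdm1a had a log2 fold change of -0.36 and was lower. Of 9 histone acetyltransferases, 1 was lower, Kat8 at -0.51, an enzyme that acetylates histone H4.

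Of 19 kinase and 14-3-3 genes that act on class IIa deacetylases, 2 were higher. Camk2b, a calmodulin-dependent kinase known to phosphorylate HDAC4, rose from 99.8, 114.4 and 126.0 to 266.8, 278.4 and 243.7 normalized counts (log2 fold change 1.22 ± 0.14, SE, edgeR adjusted p = 0.0020). Camk4, a related kinase, rose by 0.48. Camk2d and Camk2g had more reads than Camk2b, with negative siRNA means of 2943 and 2156 against 113 normalized counts. Their log2 fold changes were -0.15 and -0.29, and that of Camk2a was 0.64. None of these 3 passed (edgeR adjusted p = 0.169, 0.171 and 0.0719). Among 6 cardiac genes known to be held down by Ezh2, 5 were tested and 1 was higher. This was Hcn4, a pacemaker channel gene, with 266.7, 446.7 and 353.0 against 745.6, 565.6 and 686.9 normalized counts (0.91 ± 0.19; edgeR adjusted p = 0.0198), and 8 of 10 cardiomyocyte markers were higher in the same libraries, whose part in this was not tested. Isl1, Cdkn2a and Cdkn2b, also on that list, had log2 fold changes of 0.04, -0.05 and -0.09 and did not pass, nor did Pax6 at 0.80 (edgeR adjusted p = 0.284). Of 39 Hox genes, the classic Polycomb targets, 13 passed the filter on low counts, and 1 of these was higher. Hoxc13 had 101.5, 83.4 and 82.4 against 144.8, 126.8 and 150.5 normalized counts (0.65 ± 0.16; edgeR adjusted p = 0.0337). The log2 fold changes of the 13 ran from -0.50 for Hoxa4 to 0.97 for Hoxd4, neither of which passed, around a median of 0.12. Summed over the 39 Hox genes, the level was 1044 to 1216 normalized counts with negative siRNA and 1407 to 1545 with DNMT1 siRNA. Hoxd8 was the largest single part of this sum, with means of 509.7 and 733.3. It did not pass (log2 fold change 0.53, edgeR adjusted p = 0.0883). Hoxa2, Hoxa3, Hoxa4, Hoxa5 and Hoxb4 had negative log2 fold changes, so the sum does not show a rise of the Hox genes in general. EZH2 is known to follow cell division. Of 23 proliferation genes, 1 was lower by the adjusted p, beside 5.65% of all genes tested. This was the replication helicase gene Mcm6 (-0.43), and the list ran up to 0.11 for Mki67 around a median of -0.13. The part of cell division in the Ezh2 values was not tested.

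**Figure D5:**
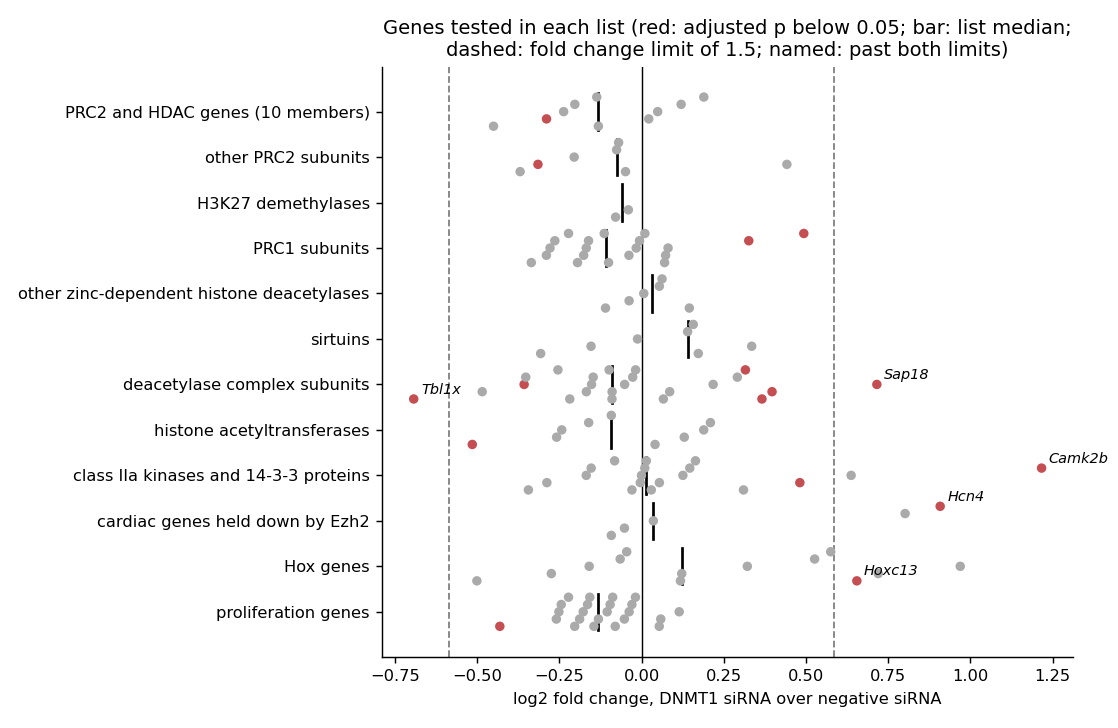
Log2 fold changes (x axis) of the tested genes in each list, 1 point per gene, with red for an adjusted p below 0.05, a black bar for the list median and dashed lines at the fold limit of 1.5. Past both limits lie Tbl1x on the left and Sap18, Camk2b, Hcn4 and Hoxc13 on the right, and no gene of the 10 enzymes and subunits in the top row does.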

How the data were processed

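RNA-Seq was read from 3 negative siRNA and 3 DNMT1 siRNA libraries, grouped by sample title. Per the labels and the study's methods, the authors checked reads with FastQC, mapped them to mm10 (GRCm38) with TopHat2 and counted them with HTSeq, and deposited raw counts per Ensembl gene. The study's methods name an Ensembl GRCm38 annotation. Tool versions, strand setting and overlap rule are not given in the sources used here. HTSeq's rows for reads with no gene were kept out of library sizes and tests. HTSeq's row for reads mapped to several places was taken as a share of all entries in those rows and genes together. This share was 41.3 to 42.5% with negative siRNA and 48.3 to 52.9% with DNMT1 siRNA. Whether that row counts such a read once or once per place is not given in the sources used here. The part of these reads in the values of Hdac1 and the other genes was not tested.

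Counts were tested in R 4.3.3 with edgeR 4.0.16, using its quasi-likelihood F test, TMM scaling and the filterByExpr filter with a minimum count of 10 and a minimum total of 15, and p-values were adjusted by Benjamini-Hochberg over 15470 genes. Standard errors were the absolute log2 fold change over the square root of F. DESeq2 1.42.0, edgeR's exact test, other scalings and filters, a replicate block, an adjusted p below 0.01, no fold limit and leaving out each library were alternatives. The edgeR quasi-likelihood and DESeq2 fits were tested on simulated data. Permutation tests used scipy 1.17.1. Gene lengths and positions came from GENCODE M21, which holds 42548 of the 43629 genes. Shared windows had 75 bases. Pairs of replicates differed by a chi-square per degree of freedom of 26.4 to 54.5 with negative siRNA and 2.70 to 9.86 with DNMT1 siRNA, so no file repeated another library. This does not show whether the libraries of a treatment came from separate cultures.

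The genes and lists were chosen with earlier results of these data known. Named are the 10 genes, Dnmt1, Dnmt3a and Dnmt3b, up to 4 genes per list past both limits and the 3 genes most like each member called, with exceptions stated. Dnmt3b had a log2 fold change of 0.21 (edgeR adjusted p = 0.444). Hdac9 had as few as 60 reads in a library, which limits its precision. Exon usage, bisulfite sequencing and measures of cell function were not analysed here. The paper's own exon usage results list Ezh2 and Hdac5 among the genes with changed exons.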

Additional observations from a re-analysis of the deposited data

Results flagged for a closer look

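The share of reads in no annotated exon lies outside the gene counts that were compared. It was 14.2 percentage points higher with DNMT1 siRNA than with negative siRNA, above the level in every control library. Its part in the values of the 10 genes was not tested.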

How the results depend on the processing

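Hdac2 was lower in all 14 alternative fits, at -0.35 to -0.26 on the log2 scale, and was called in 10. With the replicate number as a block its adjusted p was 0.0703 and 0 of the 10 genes were called, with 2 list genes lower; same-numbered libraries did not deviate together (r = 0.0064, -0.0208 and 0.0274), so the numbers were not taken as pairs. Jarid2 turned to -0.0155 with total count scaling and -0.0083 without a filter, and ran from -0.0623 to 0.13 with 1 library left out. Ezh1 then ran from -0.21 to 0.0058, the Ezh2 to Ezh1 ratio from -0.35 to 0.11, and the Hdac2 to Hdac1 ratio from -0.59 to -0.30. Leaving out 1 library gave 0 to 1 of the 10 genes past both limits and 0 to 2 by the adjusted p, 255 to 823 genes higher and 112 to 472 lower past both limits, and 1 to 14 list genes higher and 1 to 7 lower. Without a filter 994 genes were higher, 701 lower and 12 list genes lower, and the median of all genes moved to 0.11; with total count scaling 8 list genes were lower. An adjusted p below 0.01 left 296 higher and 124 lower genes and 1 list gene each way. Without a fold limit 1054 genes were higher, 874 lower and 1 of the 10 passed. Over all entries counted by HTSeq, including its row for reads mapped to several places, the difference in reads outside exons was 4.74 points. The cause of these changes was not tested. The DNMT1 siRNA libraries were shallower, and Hdac9 had as few as 60 reads in a library.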
